A study of Mus musculus with 16 samples.

Results

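The integrin, collagen and laminin genes are 81 of the 22058 genes in the deposited count table. They were chosen by symbol, as every gene named as an integrin alpha chain (18 genes), an integrin beta chain (8 genes), a collagen alpha chain (44 genes) or a laminin alpha, beta or gamma chain (11 genes). 80 of them had at least 1 count, and Col6a4, a collagen VI chain, had 0 in every library. 26 had enough counts to be tested.

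The study sorted cells of whole brains of 4 male wildtype C57BL/6 mice, numbered 2 to 5, by flow cytometry. Live cells were collected as microglia (CD11b+), astrocytes (EAAT2+) or neurons (Thy1+), each outside gates for O1+ cells, which are mostly oligodendrocytes, and for CD31+ cells, which are mostly endothelial. The fourth sample of each mouse is labelled input and titled pooled. It was used as the unsorted reference, although the step at which it was taken is not given in the labels. The labels give no age and name no treatment. All mice were perfused, and all 16 libraries came from enzymatically dissociated adult brain, were made with a 3' end kit with molecular identifiers, and were read together on 1 lane. Each group therefore has 4 libraries, 1 from each mouse, and a library is named here by its group and mouse.

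Integrins are the main cell surface receptors for the extracellular matrix. Each is a pair of an alpha and a beta chain, and the pair decides what is bound: collagen, laminin, fibronectin and other proteins with an RGD motif, or ligands on other cells in the case of the leukocyte pairs. Collagens and laminins are among the ligands. In the brain they lie mainly in the basement membranes of vessels and of the meninges, made of collagen IV and of laminin trimers of 1 alpha, 1 beta and 1 gamma chain. CD11b, the protein by which microglia were gated, is the alpha chain encoded by Itgam, so the level of Itgam is a check of the sort and no finding.

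Promoter windows of RefSeq on build GRCm38.p6 were found for 58 of the 81 genes. They run from 250 bases before to 50 bases from the start in RefSeq, 300 bases in all. For Col27a1 that start lies 1408 bases downstream of the start of the gene coordinates given with its values below, and for the 3 other genes printed here the starts are the same. 4 are printed for the genes to which the results below return: Itgam (chr7:128062390-128062689, plus strand) and Col27a1 (chr4:63215162-63215461, plus strand), the integrin and the collagen gene with the largest rise in microglia over input, and Col4a1 (chr8:11312777-11313076, minus strand) and Col4a2 (chr8:11312555-11312854, plus strand), which are transcribed away from each other. In Itgam and Col27a1, capitals mark each match to GAGGAA on either strand (TTCCTC where it lies on the other strand), the core of the box bound by the myeloid transcription factor PU.1. In Col4a1 and Col4a2, capitals mark the 78 bases that both windows hold.
Itgam: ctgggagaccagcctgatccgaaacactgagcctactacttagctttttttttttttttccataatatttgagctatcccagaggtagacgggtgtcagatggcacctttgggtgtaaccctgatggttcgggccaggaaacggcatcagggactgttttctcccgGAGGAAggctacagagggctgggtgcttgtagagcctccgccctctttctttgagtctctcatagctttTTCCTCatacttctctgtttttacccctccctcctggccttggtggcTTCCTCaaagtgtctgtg
Col27a1: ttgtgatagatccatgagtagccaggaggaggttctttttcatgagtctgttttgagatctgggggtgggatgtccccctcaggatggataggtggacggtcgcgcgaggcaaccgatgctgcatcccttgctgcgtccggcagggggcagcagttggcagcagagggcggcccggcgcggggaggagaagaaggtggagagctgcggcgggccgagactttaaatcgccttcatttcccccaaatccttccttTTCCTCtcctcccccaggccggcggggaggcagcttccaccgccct
Col4a1: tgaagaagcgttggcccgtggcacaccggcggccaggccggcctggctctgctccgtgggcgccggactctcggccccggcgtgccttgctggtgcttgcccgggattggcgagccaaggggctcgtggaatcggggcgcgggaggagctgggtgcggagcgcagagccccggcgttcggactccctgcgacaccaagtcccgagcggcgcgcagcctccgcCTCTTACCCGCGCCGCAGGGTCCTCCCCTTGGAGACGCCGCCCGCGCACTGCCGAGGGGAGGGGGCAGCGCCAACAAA
Col4a2: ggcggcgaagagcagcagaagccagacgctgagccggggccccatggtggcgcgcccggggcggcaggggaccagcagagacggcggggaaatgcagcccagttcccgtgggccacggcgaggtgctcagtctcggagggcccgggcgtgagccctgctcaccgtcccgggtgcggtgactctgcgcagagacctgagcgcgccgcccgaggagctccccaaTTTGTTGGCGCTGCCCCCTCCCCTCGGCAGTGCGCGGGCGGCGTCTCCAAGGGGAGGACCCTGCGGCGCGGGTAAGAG
The Itgam window held GAGGAA at position -84 on its own strand, and at -15 and 33 on the opposite strand, counted from the start site as 1. The Col27a1 window held it at position 5, on the opposite strand. The same letters were found in 28.3% of the 32851 promoter windows of all genes, so the matches are a description of these windows. The annotated starts of Col4a1 and Col4a2 lie 21 bases apart, so that the 2 genes overlap at their starts.

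Total counts per library were 191236 to 1413564 in microglia, 211087 to 710828 in astrocytes, 116761 to 393199 in neurons and 1702665 to 2811080 in input. At these depths 34 to 54 of the 81 genes had a count in a microglial library, 36 to 47 in an astrocyte library, 34 to 49 in a neuronal library and 72 to 77 in an input library. The summed markers of each labelled cell type were highest in their own group: microglial markers stood at 22170 to 31370 CPM (counts scaled to the size of the library) in microglia and 5264 to 6408 in input, astrocyte markers at 17450 to 25610 in astrocytes and 4300 to 7760 in input, and neuronal markers at 2259 to 3414 in neurons and 803 to 1235 in input. The neuronal libraries also held markers of other cells. Choroid plexus markers summed to 2952 to 7911 CPM there and microglial markers to 1410 to 5203. Astrocyte markers summed to 1385 to 4466 CPM and oligodendrocyte markers to 1687 to 3133. The part of such cells in the neuronal values was not tested. The 12 libraries of animals 2, 3 and 4 each held 110 to 250 counts of growth hormone (Gh), whatever their depth. Against this, the neurons of animal 5 held 19000 and the input of animal 5 held 5600. Whether transcripts passed between the pooled libraries was not tested, and an estimate of such sharing was subtracted from every library as an alternative. It took 7.29 to 47.4% of the counts of microglial libraries, 14.2 to 44.6% in astrocytes and 25.6 to 67.1% in neurons, against 3.70 to 6.11% in input. Where subtraction ends or makes a call of an integrin, collagen or laminin gene printed below, its value stands beside it.

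Integrin genes took a larger share of the counts, and laminin genes a smaller share, in every microglial library than in any input library. The summed level of the integrin alpha chain genes was 2990 ± 411 CPM in microglia, 750 ± 164 in astrocytes and 775 ± 278 in neurons, against 1034 ± 72.1 in input (SD, n = 4 each). Itgam, the gene of the gate, made up 1781 CPM of this sum in microglia and 216 in input. Without Itgam the alpha chains summed to 1209 ± 287 CPM in microglia, 556 ± 29.2 in astrocytes and 524 ± 132 in neurons, against 819 ± 76.7 in input, and each microglial library still lay above each input library. Integrin beta chain genes summed to 1702 ± 591 CPM in microglia, 763 ± 69.7 in astrocytes and 593 ± 195 in neurons, against 777 ± 53.8 in input. For collagen genes the sum was 413 ± 72.9 CPM in microglia, 335 ± 81.5 in astrocytes and 293 ± 45.0 in neurons, against 699 ± 106 in input, and no sorted library overlapped with input. Laminin genes summed to 21.5 ± 6.99 CPM in microglia, 122 ± 27.1 in astrocytes and 78.9 ± 13.1 in neurons, against 173 ± 18.2 in input. The 4 microglial libraries, at 15.2 to 31.0 CPM, lay below the 12 others, and the astrocyte library of animal 3, at 160 CPM, lay within the input range.

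**Figure D1:**
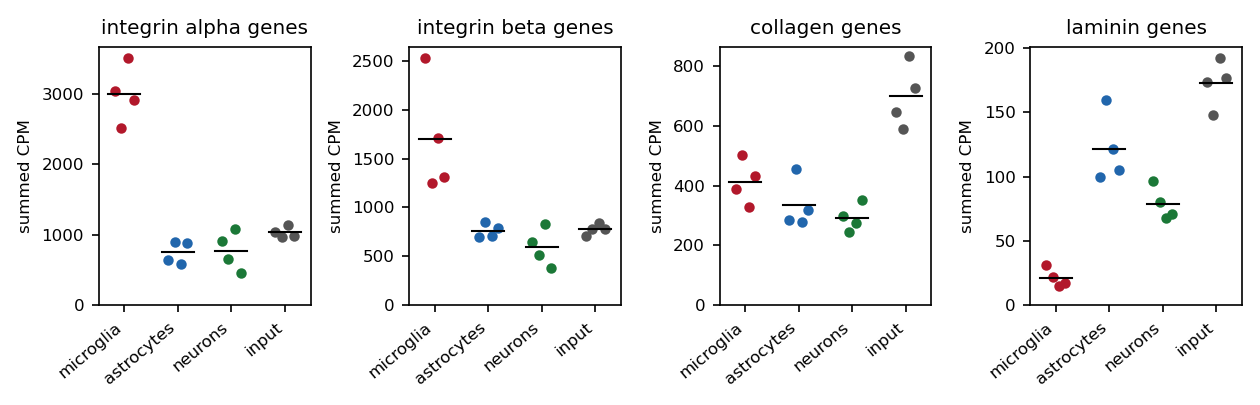
Summed CPM of the integrin alpha, integrin beta, collagen and laminin genes in each library (points, n = 4 per group) with the group mean (line). Microglia lie above input for both integrin families, and the sorted libraries lie below input for the collagens.

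Microglia were set apart from input by 23 of the 26 tested genes, with 8 called higher and 15 called lower, where 53.9% of the 9091 genes tested in the series were called (24.1% higher and 29.8% lower). A difference is called here at a Benjamini-Hochberg adjusted p below 0.05 in an edgeR quasi-likelihood fit over all 16 libraries. Between astrocytes and input 11 of 26 were called (2 higher and 9 lower) against 35.4% of all genes (16.3% higher and 19.1% lower), and between neurons and input 13 of 26 (2 higher and 11 lower) against 24.9% (11.2% higher and 13.7% lower). The libraries of microglia and input did not overlap for 22 of the 26 genes (52.4% of all genes), those of astrocytes and input for 13 (37.8%) and those of neurons and input for 10 (28.6%). Over the 26, the median log2 fold change against input was -2.67 for microglia, -0.86 for astrocytes and -0.84 for neurons, beside -0.04, -0.09 and -0.11 over all genes tested. The 3 comparisons share the 4 input libraries. Between sorted groups, 19 of 26 were called for microglia against astrocytes (9 higher and 10 lower, against 49.8% of all genes, 23.7% higher and 26.1% lower). For microglia against neurons 22 were called (8 higher and 14 lower, against 44.6%, 20.2% higher and 24.4% lower). For astrocytes against neurons 10 were called (5 higher and 5 lower, against 28.5%, 14.8% higher and 13.7% lower), with 3 higher and 5 lower under library totals as the only scaling. Libraries did not overlap for 17, 13 and 7 of the 26 in these 3 comparisons, beside 37.2%, 30.8% and 19.9% of all genes. The filter bears on these counts: 18 of the 26 reached its cutoff of 20.1 CPM in 4 or more sorted libraries, and the other 8 (Lamc1, Lamb1, Col8a1, Col8a2, Col4a2, Col1a1, Col23a1 and Itga7) passed with the help of the input libraries, Col8a2 through them alone, so the excess of lower calls is a description and no support for a direction. In the same way Itgal and Itga4 passed with the help of the neuronal libraries, Itga9 of the microglial and Lama2 of the astrocyte libraries. Their higher calls in those groups are a description too. The data are of bulk samples, in which fewer cells of a type and less RNA per cell cannot be told apart.

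**Figure D2:**
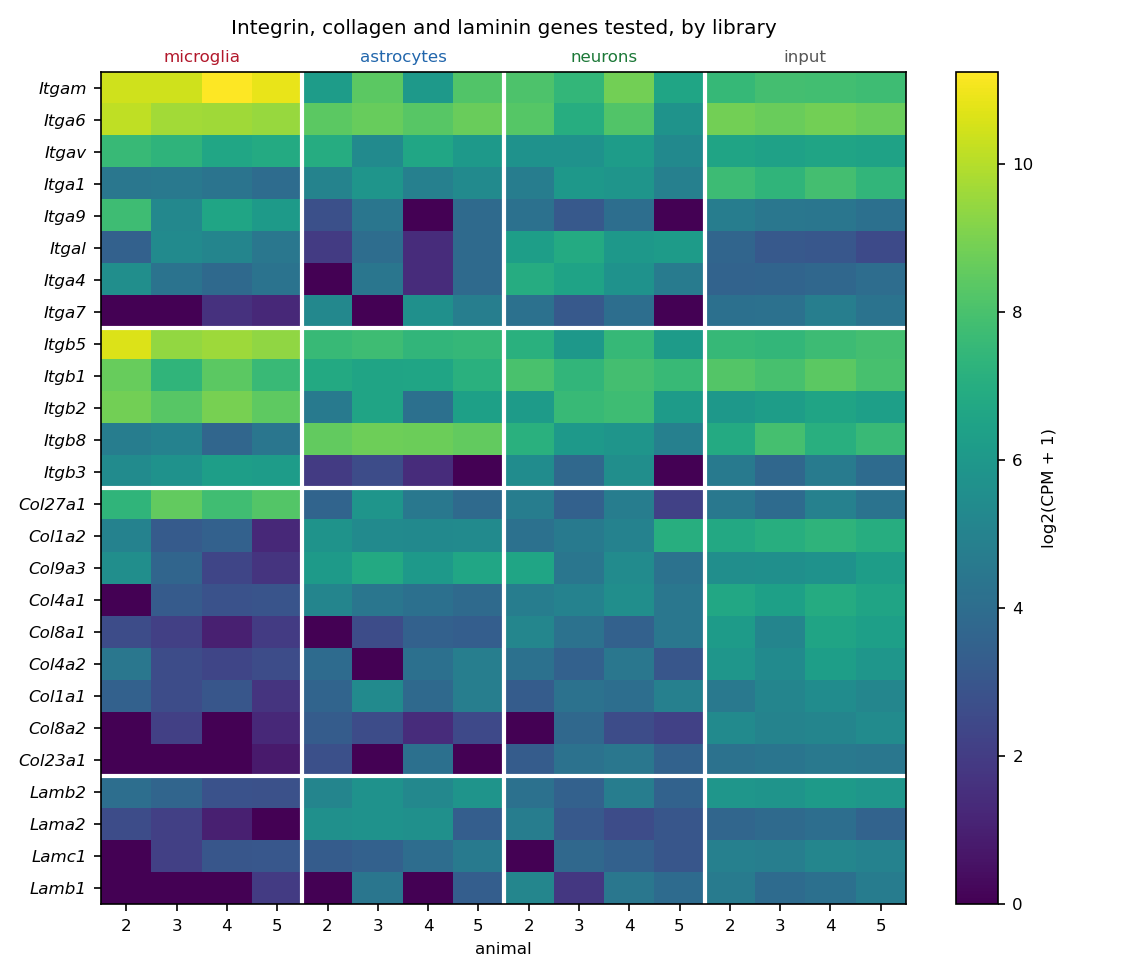
Level of each of the 26 tested genes as log2(CPM + 1), with genes in rows by family (integrin alpha, integrin beta, collagen, laminin) and the 16 libraries in columns by group and animal. Microglia show bright rows for Itgam, Itga6, Itgb5, Itgb2 and Col27a1 and dark rows for most collagens and the laminins, while Itgb8 is brightest in astrocytes.

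Among the leukocyte integrin alpha chains, Itgam (ENSMUSG00000030786, chr7:128062640-128118491) stood at 1396, 1392, 2433 and 1902 CPM in microglia of animals 2, 3, 4 and 5. It stood at 74.2, 340, 65.9 and 293 CPM in astrocytes, at 273, 173, 462 and 95.9 in neurons and at 185, 234, 227 and 217 in input. All 4 microglial libraries lay above the 12 others, as the gate implies. The fitted difference between microglia and input was 3.05 ± 0.41 on the log2 scale (SE, adjusted p = 3.69e-07). Summed monocyte and neutrophil markers were at 11350 CPM in the microglia of animal 4, which had the highest Itgam, against 2927 to 3601 in the other microglial libraries. In input they were at 466 to 1462 CPM, below every microglial library. In astrocytes, the libraries of animals 3 and 5, with more Itgam, also had more of the 7 matched microglial markers (4141 and 4083 CPM) than those of animals 2 and 4 (1341 and 1386 CPM). The astrocyte libraries of animals 3 and 5 were also shallower, with 211087 and 247660 counts against 423122 and 710828 in animals 2 and 4. The sharing estimate took 44.6 and 39.2% of their counts, against 22.6 and 14.2% in animals 2 and 4. The part of these cells or of shared transcripts in the values of Itgam, or of Itgb2 and Itgal below, was not tested.

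Itgb2 (ENSMUSG00000000290, chr10:77530252-77565708) encodes CD18, the beta chain that pairs with Itgam, Itgal and Itgax. It stood at 466, 323, 487 and 351 CPM in microglia. Astrocyte libraries held 22.8, 92.8, 16.9 and 82.3, neuronal libraries 70.4, 189, 218 and 71.0 and input libraries 63.1, 75.6, 94.9 and 81.0. Microglia did not overlap with any other group, and the difference from input was 2.36 ± 0.35 (log2, SE, adjusted p = 1.12e-06). In astrocytes the high and low libraries of Itgb2 were those of Itgam. Astrocytes and input did not differ at the threshold (-0.75 ± 0.41, adjusted p = 0.15), but astrocytes were called lower once the astrocytes of animal 3 were left out (-1.19, adjusted p = 0.0345), with library totals as the only scaling (-1.07, adjusted p = 0.0405) and with the sharing estimate subtracted (-3.49, adjusted p = 0.00949). In neurons, Itgb2 at 0.84 ± 0.36 above input missed the threshold (adjusted p = 0.0883) and passed it in 7 of 24 alternatives, among them RLE scaling (0.99, adjusted p = 0.0471). The others were the fit of the 2 groups alone (1.01) and the fits without the microglia of animal 2 (0.96) or 4 (0.99), the astrocytes of animal 4 (0.99) or the neurons of animal 2 (1.01) or 5 (1.08).

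Itgal (ENSMUSG00000030830, chr7:127296260-127335138), the alpha chain of the lymphocyte adhesion receptor LFA-1, and Itga4, the alpha chain of VLA-4, were called higher in neurons than in input. Itgal stood at 79.2, 116, 62.3 and 71.0 CPM in neurons, against 11.8, 7.91, 7.38 and 4.69 in input, a difference of 3.38 ± 0.43 (log2, SE, adjusted p = 8.64e-07). Itga4 stood at 123, 90.4, 51.9 and 24.9 CPM in neurons, against 10.9, 11.4, 12.7 and 15.4 in input (2.45 ± 0.48, adjusted p = 0.000353). Neither gene's neuronal libraries overlapped with input. Itgal reached the cutoff of the count filter in 4 neuronal, 3 microglial, 0 astrocyte and 0 input libraries, and Itga4 in 4, 1, 0 and 0. Both could be tested only with the help of the neuronal libraries, so their higher calls in neurons are a description. 7 matched markers of T and NK cells summed to 422, 506, 571 and 313 CPM in the same neuronal libraries, against 10.1, 7.22, 12.1 and 7.67 in input, 8.05 to 15.5 in microglia and 10.1 to 77.7 in astrocytes. Each of the 7 had counts in neurons. Thy1, the protein of the neuronal gate, is also carried by mouse T cells. The part of such cells in the 2 integrin values was not tested. Microglia also had more Itgal than input, at 10.3, 40.8, 33.5 and 21.2 CPM (1.81 ± 0.42, adjusted p = 0.000521), with overlap through the library of animal 2, and the call ended when the sharing estimate was subtracted (1.45, adjusted p = 0.0735). Itga4 in microglia, at 46.6, 18.7, 13.2 and 18.3 CPM, did not differ from input at the threshold (0.68 ± 0.48, adjusted p = 0.243). Microglia were lower than neurons for Itgal (-1.57 ± 0.42, adjusted p = 0.003) and for Itga4 (-1.76 ± 0.52, adjusted p = 0.00582), and astrocytes were lower than neurons for both (-3.72 ± 0.59 and -3.42 ± 0.68, with adjusted p of 1.41e-05 and 0.000253). Without the astrocytes of animal 3 the last value was -4.22.

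The other integrin genes higher in microglia encode chains of widely used receptors. Itgb5 (ENSMUSG00000022817, chr16:33829665-33949153), the beta chain of the vitronectin receptor with alpha V, stood at 1603, 679, 781 and 666 CPM in microglia. In astrocytes the values were 191, 217, 167 and 178, in neurons 141, 62.0, 187 and 71.0, against 185, 172, 211 and 235 in input. Every microglial library exceeded every other library, and that of animal 2 stood apart above the 3 others. The difference between microglia and input was 2.20 ± 0.30 (log2, SE, adjusted p = 4.33e-07). Neurons were called lower than input for Itgb5 (-0.88 ± 0.33, adjusted p = 0.0495), a call lost in 13 of 24 alternatives, for instance without the libraries of animal 5 (-0.62, adjusted p = 0.278). Leaving out the microglia of animal 4 (-0.74), the astrocytes of animal 2 (-0.82) or 4 (-0.74), the neurons of animal 3 (-0.64) or 5 (-0.72), or any 1 input library (-0.96 to -0.81) ended it.

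Itgb3, the beta chain of the platelet and osteoclast integrins that also pairs with alpha V, stood at 41.4, 52.6, 79.1 and 73.2 CPM in microglia, against 24.0, 12.7, 24.8 and 14.5 in input. These groups did not overlap, and the difference was 1.76 ± 0.40 (log2, SE, adjusted p = 0.00043), falling short of the threshold with the sharing estimate subtracted (1.39, adjusted p = 0.0664). Astrocytes had 3 counts of Itgb3 in all, against 175 in input, a ratio that was 8.29-fold lower (exact 95% interval 2.79 to 40.6). Itgb3 in neurons ranged from 0 in animal 5 to 46.7 CPM in animal 4, on 9 counts, and overlapped with input.

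Itga9, which pairs with beta 1 and binds tenascin and osteopontin, stood at 212, 37.4, 97.3 and 68.8 CPM in microglia, against 26.1, 20.97, 20.0 and 16.6 in input. Microglia lay above input in each library although they spread over a wide range (2.17 ± 0.43, adjusted p = 9.18e-05). Itga9 reached the cutoff of the count filter in 4 microglial, 0 astrocyte, 0 neuronal and 3 input libraries. It passed only with the help of the microglial libraries, so its higher call there is a description. Itga6, the alpha chain of laminin receptors with beta 1 or beta 4, stood at 1138, 815, 791 and 732 CPM in microglia and 343, 397, 321 and 407 in the astrocyte libraries. Neurons held 308, 127, 296 and 53.3 CPM, against 463, 413, 464 and 414 in input. For this gene the order of the groups was microglia, input, astrocytes and neurons, and input and astrocytes did not differ at the threshold (-0.26 ± 0.31 for astrocytes over input, adjusted p = 0.544). Microglia were higher than input (0.98 ± 0.31, adjusted p = 0.00763, but adjusted p = 0.469 at 0.69 with the sharing estimate subtracted), and neurons were lower (-1.24 ± 0.33, adjusted p = 0.00641).

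**Figure D3:**
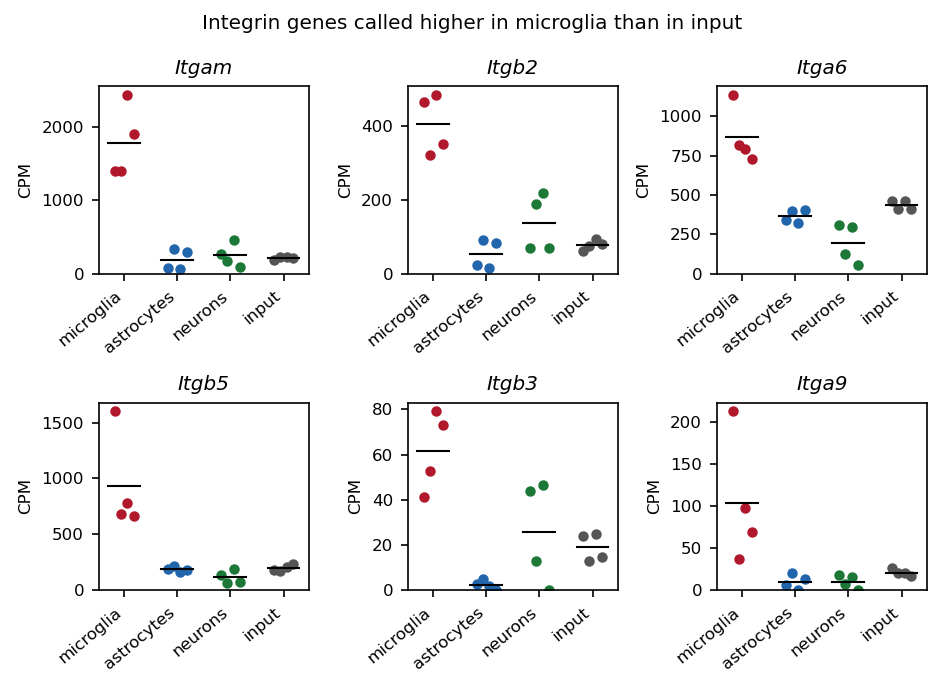
CPM of 6 integrin genes called higher in microglia than in input, by library (points, n = 4 per group) with the group mean (line). Microglia lie above every other library for Itgam, Itgb2, Itga6, Itgb5 and Itga9. Neurons of animals 2 and 4, on 5 and 9 counts, reach the microglial range for Itgb3.

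Itgav and Itgb1, the chains with the most partners, set microglia apart less. Itgav, the alpha V chain of RGD-binding integrins, stood at 191, 160, 99.3 and 117 CPM in microglia and 92.6, 86.0, 94.9 and 89.5 in input. The groups did not overlap, yet the difference of 0.60 ± 0.27 missed the threshold (adjusted p = 0.0666) and passed it in 10 of 24 alternatives, among them RLE scaling (0.69, adjusted p = 0.0393) and the fit without the microglia of animal 4 (0.93, adjusted p = 0.012). Itgb1, the chain shared by most matrix-binding integrins, stood at 393, 163, 345 and 198 CPM in microglia and 299, 251, 343 and 247 in input, with overlapping groups (-0.08 ± 0.26, adjusted p = 0.817). Astrocytes had less Itgb1 than input, at 114, 92.8, 98.1 and 142 CPM (-1.36 ± 0.28, adjusted p = 0.000376), with no overlap. Neurons stood between, at 255, 168, 239 and 188 CPM.

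Of 8 integrin alpha and 5 integrin beta genes tested, 2 and 1 were called lower in microglia than in input. Over all genes tested 29.8% were called lower, so these counts are no excess. Itgb8 (ENSMUSG00000025321, chr12:119158022-119238802, minus strand), which pairs with alpha V and activates latent TGF-beta, was the integrin called higher in astrocytes. It stood at 25.9, 30.6, 12.2 and 20.5 CPM in microglia. Astrocyte libraries held 371, 438, 423 and 375, neuronal libraries 141, 64.6, 57.1 and 28.4 and input libraries 118, 244, 137 and 196. The 4 astrocyte libraries lay above the 12 others and close to each other. Microglia lay below input without overlap. The difference from input was -3.05 ± 0.35 in microglia (log2, SE, adjusted p = 3.05e-08), 1.21 ± 0.29 in astrocytes (adjusted p = 0.00167) and -1.41 ± 0.35 in neurons (adjusted p = 0.00323). With the sharing estimate subtracted the astrocyte change was 1.24 with adjusted p = 0.182, and the neuronal change was -1.06 with adjusted p = 0.0611 without animal 5. Astrocytes exceeded neurons by 2.62 ± 0.35 (adjusted p = 1.54e-06), and microglia were lower than astrocytes (-4.25 ± 0.37, adjusted p = 1.28e-10).

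Itga1, the alpha chain of a collagen and laminin receptor with beta 1, was lower than input in the 3 sorted groups. It stood at 20.7, 22.1, 19.3 and 14.6 CPM in microglia. In astrocytes the values were 31.4, 56.7, 28.7 and 41.2, in neurons 26.4, 62.0, 57.1 and 28.4, against 206, 162, 237 and 171 in input. All 12 sorted libraries lay below the lowest input library. The changes were -3.38 ± 0.32, -2.38 ± 0.32 and -2.08 ± 0.32 in microglia, astrocytes and neurons over input (adjusted p = 1.3e-09, 1.1e-06 and 1.49e-05). Itga7, an alpha chain of laminin receptors, stood at 0, 0, 2.03 and 1.46 CPM in microglia (4 counts in all). Astrocytes had 37.1, 0, 49.0 and 27.4 CPM and neurons 17.6, 7.75, 15.6 and 0, against 16.8, 17.2, 27.4 and 18.3 in input. Microglia were lower than input (-3.85 ± 0.74, adjusted p = 5.22e-05). Itga7 reached the cutoff of the count filter in 3 astrocyte, 1 input, 0 microglial and 0 neuronal libraries, so this lower call is a description. The astrocytes of animal 3 had 0 counts while the 3 others exceeded the 3 lowest input libraries, and astrocytes did not differ from input at the threshold (0.69 ± 0.48, adjusted p = 0.274).

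Most of the tested collagen genes were called lower than input in microglia, and 5 of 9 in each of the other sorted groups. In microglia 8 fell and 1 rose, where 29.8% of all genes tested were called lower and 24.1% higher. In astrocytes 5 fell and 0 rose (19.1% lower and 16.3% higher over all genes), and the same numbers held in neurons (13.7% and 11.2%). Of the 9, Col8a1, Col8a2, Col4a2, Col1a1 and Col23a1 passed the count filter with the help of the input libraries, so that these counts are a description. Between astrocytes and neurons 0 of 9 were called, where 28.5% of all genes were. In microglia 6 of 9 were called against astrocytes (1 higher and 5 lower, where 49.8% of all genes were called) and 8 of 9 against neurons (1 higher and 7 lower, where 44.6% were). For the pair without a call, edgeR gave 2 of 9 an unadjusted p below 0.05, Col9a3 (1.23 ± 0.54 for astrocytes over neurons, adjusted p = 0.0884) and Col8a1 (-1.58 ± 0.71, adjusted p = 0.0951), and DESeq2 called 0. Col9a3 passed the threshold in 3 of 24 alternatives: without the filter, and without the microglia or the neurons of animal 2.

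Col27a1 (ENSMUSG00000045672, chr4:63214004-63334991), a fibrillar collagen known from cartilage, was the tested collagen that rose in microglia. It stood at 166, 374, 223 and 300 CPM in microglia and 11.4, 56.7, 22.0 and 13.7 in the astrocyte libraries. Neurons held 26.4, 10.3, 26.0 and 3.55 CPM, against 21.5, 14.1, 30.1 and 18.3 in input. The lowest microglial library had more than the highest of the 12 others, the astrocytes of animal 3. Microglia over input gave 3.69 ± 0.35 (log2, SE, adjusted p = 1.46e-09), microglia over astrocytes 3.50 ± 0.41 (adjusted p = 2.14e-08) and microglia over neurons 4.27 ± 0.48 (adjusted p = 2.26e-08). Astrocytes and neurons did not differ from input at the threshold, with 0.19 ± 0.44 (adjusted p = 0.779) and -0.59 ± 0.54 (adjusted p = 0.463), although with the sharing estimate subtracted neurons were called lower (-7.10, adjusted p = 0.0101).

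The collagen IV pair whose promoter windows overlap stood far lower in sorted cells. Col4a1 stood at 0, 8.49, 6.08 and 6.58 CPM in microglia. Astrocyte libraries held 34.3, 20.6, 16.9 and 13.7, neuronal libraries 26.4, 31.0, 46.7 and 21.3 and input libraries 105, 82.5, 121 and 93.8. Col4a2 stood at 20.7, 5.09, 4.06 and 5.12 CPM in microglia. In astrocytes the values were 14.3, 0, 16.9 and 27.4, in neurons 17.6, 10.3, 20.8 and 7.10, against 58.9, 41.3, 79.1 and 59.7 in input. For both genes every sorted library lay below every input library, and both were called in each sorted group. Col4a1 changed by -3.97 ± 0.39 in microglia, -2.21 ± 0.36 in astrocytes and -1.69 ± 0.36 in neurons over input (adjusted p = 2.06e-09, 2.16e-05 and 0.000952), and Col4a2 by -3.27 ± 0.48, -1.95 ± 0.46 and -2.23 ± 0.52 (adjusted p = 1.1e-06, 0.0014 and 0.00209). 8 endothelial markers, the cells that the CD31 gate removed, summed to 192 to 517 CPM in microglia, 226 to 846 in astrocytes, 504 to 940 in neurons and 3033 to 3950 in input, and each of the 8 kept counts in every group. 8 mural cell markers summed to 89.2 to 233 CPM in microglia (Kcnj8 at 0), 347 to 562 in astrocytes, 359 to 660 in neurons and 1485 to 1702 in input. Vessel cells are the known source of collagen IV in brain, and the part of these cells in the values was not tested.

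Collagen I is the fibrillar collagen of meninges and scar, and both of its chains were tested. Col1a2 stood at 31.0, 8.49, 10.1 and 1.46 CPM in microglia and 54.2, 41.3, 38.9 and 41.2 in the astrocyte libraries. Neurons held 17.6, 23.2, 31.2 and 131 CPM, against 109, 131, 158 and 128 in input. Microglia and astrocytes lay below input without overlap, and so did 3 neuronal libraries, while the neurons of animal 5 lay within the input range. The changes over input were -3.97 ± 0.51 in microglia (adjusted p = 1.61e-07; -3.33 without the microglia of animal 5) and -1.58 ± 0.43 in astrocytes (adjusted p = 0.00507). For neurons the change was -1.27 ± 0.44 (adjusted p = 0.0329), lost in 13 of 24 alternatives: it was -0.94 to -1.10 without the neurons of animal 2, 3 or 4, -1.09 without the microglia or the astrocytes of animal 4, -1.18 without the astrocytes of animal 2, and -1.30 to -1.19 without the input of animal 3, 4 or 5. The call was also lost with RLE scaling (-1.10), in DESeq2 (-1.14), with the 2 groups alone (-1.07) and with the sharing estimate subtracted (-1.95, adjusted p = 0.114). It was -2.42 without the neurons of animal 5, in which 3 pituitary hormone genes summed to 82290 CPM, against 620 to 1412 in the other neuronal libraries and 3202 in the input of animal 5. Col1a1 stood at 10.3, 5.09, 7.10 and 2.20 CPM in microglia, against 22.3, 33.4, 43.3 and 35.0 in input (-2.70 ± 0.49, adjusted p = 2.49e-05), and neither astrocytes (-0.69 ± 0.45, adjusted p = 0.234) nor neurons (-0.80 ± 0.48, adjusted p = 0.23) differed at the threshold. 8 markers of fibroblasts and leptomeningeal cells summed to 16.1 to 36.2 CPM in microglia, 18.6 to 73.2 in astrocytes, 61.6 to 74.9 in neurons and 239 to 347 in input. Of these, Igf2 was at 0 in the 3 sorted groups, Lum in astrocytes and neurons, and Aldh1a2 in astrocytes. Over the neurons of animals 2, 3, 4 and 5 this sum was 61.6, 74.9, 67.5 and 63.9 CPM, and it was not raised in animal 5, where Col1a2 was. The part of such cells in the collagen I values was not tested.

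The short-chain collagens of Descemet's membrane and vessel walls, Col8a1 and Col8a2, were also called lower in each sorted group. Col8a2 reached the cutoff of the count filter in 0 sorted libraries and in 4 input libraries, so it could be tested only because input was high, and its lower calls are a description. Col8a1 stood at 1.01 to 5.17 CPM in microglia, 0 to 10.1 in astrocytes, 10.4 to 35.2 in neurons and 33.4 to 94.9 in input. Col8a2 stood at 0 to 3.40 CPM in microglia, 1.69 to 8.56 in astrocytes, 0 to 12.9 in neurons and 31.3 to 41.8 in input. The neurons of animal 2, at 35.2 CPM of Col8a1, were the only sorted library within the input range of either gene. Col8a1 changed by -4.69 ± 0.54, -3.40 ± 0.54 and -1.82 ± 0.47 in microglia, astrocytes and neurons over input, and Col8a2 by -4.71 ± 0.61, -2.99 ± 0.60 and -2.38 ± 0.59 (adjusted p = 0.00495 or below for each). Col8a2 rests on few counts in sorted cells, and its values were -5.35 and -4.05 without the microglia of animal 3 or 4, -2.36 without the astrocytes of animal 4 and -3.40 without the neurons of animal 3.

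Col9a3, a fibril-associated collagen known from cartilage, followed a different order. It stood at 46.6, 11.9, 4.06 and 2.20 CPM in microglia. Astrocyte libraries held 68.5, 113, 67.6 and 101, neuronal libraries 96.8, 20.7, 41.5 and 17.8 and input libraries 46.3, 48.1, 52.7 and 76.7. Astrocytes were the highest group but overlapped with input (0.60 ± 0.42, adjusted p = 0.281). For the same animals, 6 choroid plexus markers summed to 2151, 744, 490 and 617 CPM in microglia and 1327, 2805, 908 and 2844 in astrocytes. The sums were 7911, 2952, 3012 and 6837 CPM in neurons and 10360, 4490, 9688 and 12710 in input. The part of such cells in the Col9a3 values was not tested. Microglia were lower than input (-2.64 ± 0.54, adjusted p = 0.000112), with overlap through the library of animal 2; the value was -3.32 without that library and -2.01 without the library of animal 5. Microglia were lower than astrocytes with no overlap (-3.24 ± 0.57, adjusted p = 1.67e-05; -4.01 and -2.61 without the same 2 microglial libraries). Col23a1, a transmembrane collagen, had 1 count in microglia and 193 in input, 63.5-fold lower by the ratio of pooled counts (exact 95% interval 11.3 to 2520), and it stood at 8.80 to 20.8 CPM in neurons and 18.1 to 22.7 in input.

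**Figure D4:**
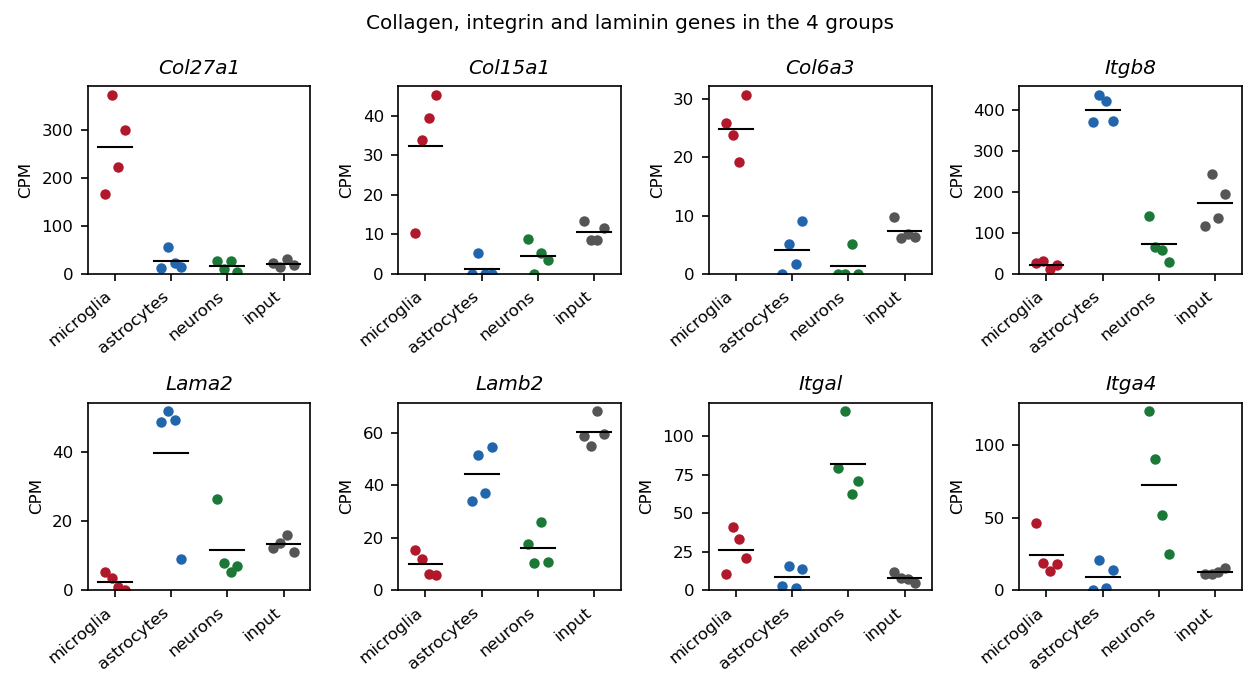
CPM of 8 genes by library (points, n = 4 per group) with the group mean (line). Col27a1, Col15a1 and Col6a3 were high in microglia, Itgb8 and, in 3 of 4 libraries, Lama2 in astrocytes, Lamb2 in input and astrocytes, and Itgal and Itga4 in neurons.

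Laminin chains were lower in microglia than in input for each of the 4 tested, where 29.8% of all genes tested were called lower. Lamc1 and Lamb1 passed the count filter with the help of the input libraries, so this count and their lower calls are a description. Lama2 (ENSMUSG00000019899, chr10:26980036-27619758, minus strand), the alpha chain of laminin 211, whose loss in humans causes a muscular dystrophy with white matter changes, was called higher in astrocytes. It stood at 5.17, 3.40, 1.01 and 0 CPM in microglia. In astrocytes the values were 48.5, 51.6, 49.0 and 9.14, in neurons 26.4, 7.75, 5.19 and 7.10, against 12.2, 13.8, 15.8 and 11.1 in input. 3 astrocyte libraries lay well above input, and the astrocytes of animal 5, with 2 counts, lay below it. Lama2 reached the cutoff of the count filter in 3 astrocyte, 1 neuronal, 0 microglial and 0 input libraries. It could be tested only with the help of the astrocyte libraries, so its higher call there is a description. Astrocytes over input gave 1.62 ± 0.45 (log2, SE, adjusted p = 0.00546), and microglia over input -3.17 ± 0.72 (adjusted p = 0.000375; -3.79 and -2.41 without the microglia of animal 3 or 5). Lamb2, the beta chain of the mature vascular and synaptic laminins, stood at 15.5, 11.9, 6.08 and 5.85 CPM in microglia and 34.3, 51.6, 37.2 and 54.9 in the astrocyte libraries. Neurons held 17.6, 10.3, 26.0 and 10.7 CPM, against 58.9, 55.0, 68.6 and 59.7 in input. All sorted libraries lay below input, astrocytes nearest to it. The changes were -2.88 ± 0.38 in microglia (adjusted p = 2.69e-07), -0.50 ± 0.33 in astrocytes (adjusted p = 0.253) and -2.03 ± 0.43 in neurons (adjusted p = 0.000781). Astrocytes exceeded neurons without overlap (1.53 ± 0.48, adjusted p = 0.0152), a call that ended without the neurons of animal 3 (1.30, adjusted p = 0.0813) or of animal 5 (1.37, adjusted p = 0.055).

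Lamc1, the gamma chain of most laminins, stood at 0, 3.40, 7.10 and 7.32 CPM in microglia. Astrocyte libraries held 8.56, 10.3, 15.2 and 22.9, neuronal libraries 0, 12.9, 10.4 and 7.10 and input libraries 29.0, 27.5, 35.3 and 31.1. No sorted library reached the lowest input library. It was called lower in microglia (-2.38 ± 0.45, adjusted p = 4.84e-05) and in neurons (-1.75 ± 0.54, adjusted p = 0.0173). Without the neurons of animal 5 the neuronal change was -1.64 with adjusted p = 0.0588. In astrocytes it missed the threshold (-1.12 ± 0.46, adjusted p = 0.0562) and passed it in 5 of 24 alternatives. These were library totals, DESeq2, the 2 groups alone, and the fits without the astrocytes of animal 5 or the neurons of animal 2. Lamb1, the other widespread beta chain, had 4 counts in microglia, all in animal 5, against 192 in input (-3.91 ± 0.80, adjusted p = 0.00012). The change was -3.29 without the microglia of animal 4. Without those of animal 5 microglia held 0 counts, so the fitted Lamb1 change of -7.22 depends on the prior count and is no bound. In astrocytes it had 6 counts, in animals 3 and 5, and its change of -2.05 ± 0.79 (adjusted p = 0.0418) was lost in 10 of the 21 alternatives that gave it a value, among them RLE scaling (-1.96), DESeq2 (-1.71), leaving out animal 5 (-2.22) and the animal as a replicate block (-1.94, adjusted p = 0.0776). Without the astrocytes of animal 2 or 4 it was -1.50 or -1.17, without those of animal 3 it was -3.42, and it also missed the threshold without the microglia of animal 4 (-1.92) or 5 (-2.03) or the input of animal 3 (-2.15) or 4 (-2.10).

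Subtraction of the sharing estimate moved many of these lower levels further down. Of the 47 calls of tested genes against input, 39 were kept, 5 were lost and 3 had no value because the gene no longer passed the filter. Of the 39, 31 moved by over 1.5-fold, each further below input. In microglia 13 did so, with log2 fold changes of -9.95 (Col1a2) to -3.29 (Lamc1) after subtraction, Itgb8 among them at -5.97. In astrocytes 8 did so, at -8.12 (Col8a2) to -3.00 (Col1a2 and Col4a2), and in neurons 10, at -8.83 (Lamb2) to -2.97 (Lamc1), with Col4a2 at -8.82. Values this low come from groups left with few or 0 counts, depend on the prior count and are no bounds. The estimate takes the same number of counts of a gene from every library. It therefore takes the larger share where a library holds few of them. The downward direction is largely set by the subtraction itself and is no support for the lower calls.

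**Figure D5:**
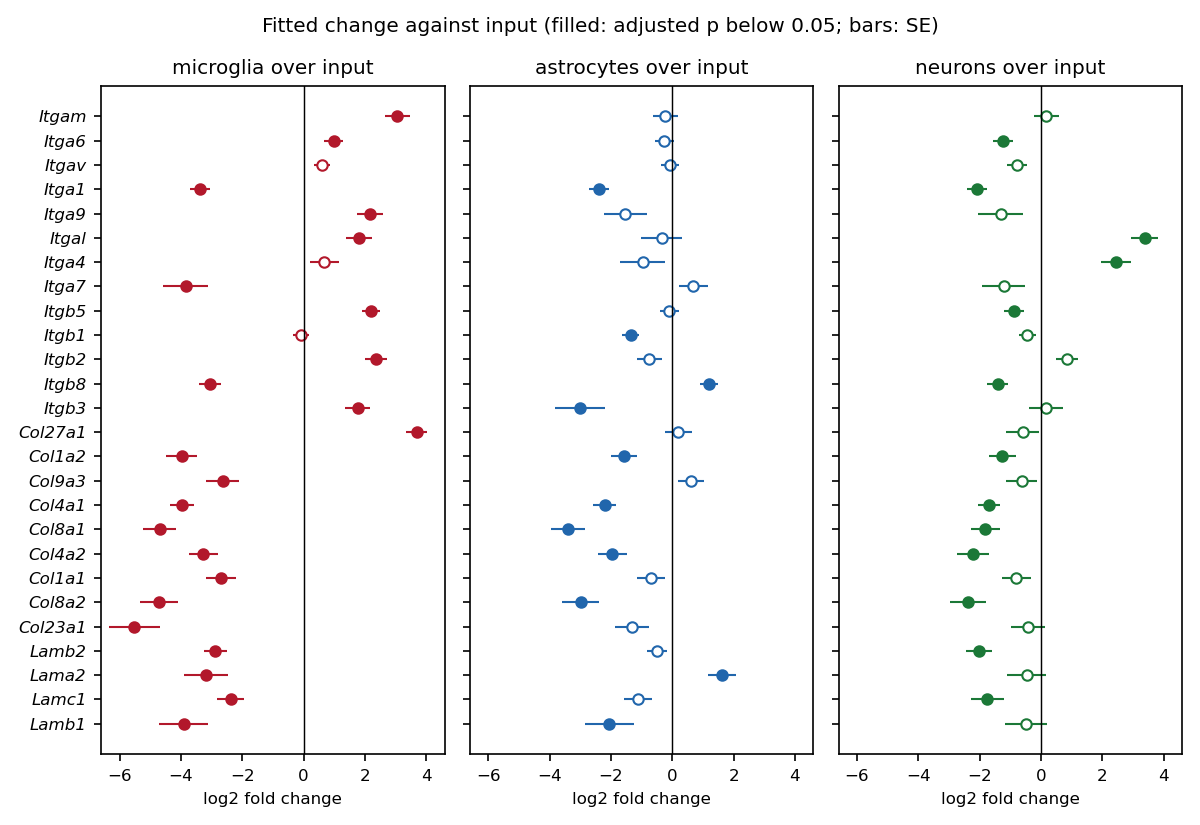
Fitted log2 fold change of the 26 tested genes in microglia, astrocytes and neurons over input, with SE bars. Filled points passed an adjusted p of 0.05. Integrin genes lie on both sides of 0 in microglia, while the collagens other than Col27a1 and the laminins lie below it.

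The 54 other genes with counts did not pass the filter. Those named here were chosen with their values in view. Their totals over the 16 libraries were at most 227 counts, with a median of 35 over these and Col6a4. In a fit of the 16540 genes with any count, 23 of the 54 were called between microglia and input (4 higher and 19 lower, where 42% of all genes were called, 17.9% higher and 24.1% lower). In that fit 9 of the 54 were called between astrocytes and input (1 higher and 8 lower, where 23.2% of all genes were called, 10.2% higher and 13% lower). Between neurons and input 6 were called (4 higher and 2 lower, where 18.5% of all genes were called, 9.48% higher and 9.03% lower). 2 collagens of basement membrane zones had a higher level in microglia. Col15a1 stood at 10.3, 34.0, 39.5 and 45.4 CPM in microglia, against 13.5, 8.60, 8.44 and 11.5 in input (1.83 ± 0.44, adjusted p = 0.000176), and had 1 count in astrocytes and 3 in neurons. Col6a3, the long chain of collagen VI, stood at 25.9, 23.8, 19.3 and 30.7 CPM in microglia, against 9.68, 6.19, 6.86 and 6.40 in input. Microglia did not overlap with input for Col6a3, and did through the library of animal 2 for Col15a1. The difference of Col6a3 was 1.84 ± 0.50 (adjusted p = 0.000912). Its partners in collagen VI had another order: Col6a1 had 1 count in microglia and 126 in input, 41.5-fold lower by pooled counts (exact 95% interval 7.31 to 1650), and Col6a2 had 3 counts in microglia and 189 in input, 20.7-fold lower (6.99 to 101).

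The 2 other untested genes called higher in microglia were integrin alpha chains. Itgax, the CD11c chain of dendritic cells and reactive microglia, stood at 0, 13.6, 12.2 and 20.5 CPM in microglia, 0 in every astrocyte library, 0, 2.58, 5.19 and 28.4 in neurons and 2.53, 0.688, 6.33 and 5.54 in input (1.98 ± 0.59 for microglia over input, adjusted p = 0.00275). Itga5, the fibronectin receptor chain, rested on 13 counts in microglia and 6 in input. The genes called higher in neurons hung on single libraries or few counts: Itgb7, the beta chain of gut-homing lymphocyte integrins, stood at 0, 15.5, 83.1 and 3.55 CPM in neurons, against 2.64 to 2.98 in input, and Itga3 at 8.80, 18.1, 20.8 and 99.5, against 9.26 to 23.5. The high Itgb7 library had the most T and NK cell markers, and the high Itga3 library, of animal 5, was the one with pituitary transcripts, whose part was not tested. Lamb3, a skin laminin chain, had 11 counts in neurons and 8 in input, and Col24a1 had 2 counts in neurons and 0 in input. In astrocytes, Col16a1 was called higher than input (1.48 ± 0.57, adjusted p = 0.0429), at 37.1, 41.3, 15.2 and 0 CPM against 9.26, 7.91, 4.22 and 10.7. Vascular laminin chains were scarce in microglia: Lama4 had 3 counts in microglia and 167 in input, 18.3-fold lower (6.16 to 89.8), Lama5 had 3 and 145, 15.9-fold lower (5.34 to 78.0), and Lamc3 had 0 and 66, at least 7.24-fold lower against a floor of 3 counts over the group. Lama4 and Lamc3 were also scarce in astrocytes. Astrocytes and neurons had lower depth than microglia, with 3 and 8 counts for Lama4, 14 and 5 for Lama5, and 0 and 3 for Lamc3. Means in microglia, astrocytes and neurons were 0.861, 2.43 and 5.65 CPM for Lama4. They were 1.90, 10.25 and 5.27 CPM for Lama5 and 0, 0 and 4.14 for Lamc3. By pooled counts microglia were below neurons for Lama4 (8.58-fold, 2.06 to 50.2) and Lama5 (5.36-fold, 1.04 to 34.5). They were below astrocytes for Lama5 (10.8-fold, 3.02 to 58.6). In the fit without the filter, astrocytes were also called lower than input for Lama4 (adjusted p = 0.0043) and Lamc3 (adjusted p = 0.00894), but not for Lama5 (adjusted p = 0.54).

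Genes that act with these families gave a reference for their roles. Of 25 tested partners of integrins in adhesion complexes, 10 were higher and 9 lower in microglia than in input, 3 higher and 8 lower in astrocytes, and 2 higher and 9 lower in neurons. Over all genes tested the shares were 24.1% higher and 29.8% lower in microglia, 16.3% and 19.1% in astrocytes and 11.2% and 13.7% in neurons. The partners' median log2 fold changes were -0.10, -0.76 and -0.62 in microglia, astrocytes and neurons, beside -0.04, -0.09 and -0.11 over all genes. The kindlins, which switch integrins on, split by group: Fermt3, the leukocyte kindlin, averaged 116 ± 24.0 CPM in microglia and 31.4 ± 7.36 in input (1.83 ± 0.35, adjusted p = 4.85e-05), and Fermt2, the widespread kindlin, averaged 654 ± 172 CPM in astrocytes and 147 ± 22.0 in input (2.17 ± 0.28, adjusted p = 7.84e-07), but fell to 32.1 ± 12.4 in microglia (-2.31 ± 0.32, adjusted p = 5.03e-07). The parvins, adaptors of integrin-linked kinase, also split in microglia, with Parvg higher (2.90 ± 0.36, adjusted p = 7.69e-08) and Parva and Parvb lower (-3.11 ± 0.55 and -1.87 ± 0.34, adjusted p = 1.69e-05 and 2.5e-05). Apbb1ip, which recruits talin to leukocyte integrins, averaged 1185 ± 142 CPM in microglia, 147 ± 95.8 in astrocytes and 213 ± 94.6 in neurons, against 237 ± 33.0 in input (2.32 ± 0.34 for microglia over input, adjusted p = 9.59e-07). Rap1b, the small GTPase above it, was also higher in microglia (1.16 ± 0.25, adjusted p = 0.00028), and Cd47, a partner of beta 3 integrins, was not called in any group (0.10 ± 0.24, 0.42 ± 0.25 and 0.07 ± 0.25 in microglia, astrocytes and neurons).

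Other basement membrane and matrix genes were mostly lower in microglia, with 2 higher and 18 lower of 20 tested, while astrocytes had 6 higher and 5 lower and neurons 0 higher and 9 lower. Of all genes 29.8% were called lower in microglia, 19.1% in astrocytes (16.3% higher) and 13.7% in neurons. The 2 higher in microglia were Sparc, a collagen-binding secreted protein (5749 ± 972 CPM in microglia and 3191 ± 334 in input, 0.85 ± 0.28, adjusted p = 0.0107), and Nid2, a nidogen that links laminin to collagen IV (37.0 ± 14.7 and 13.2 ± 3.32 CPM, 1.39 ± 0.42, adjusted p = 0.00574). The other nidogen, Nid1, was lower (4.32 ± 4.05 CPM in microglia and 46.3 ± 4.04 in input, -3.91 ± 0.55, adjusted p = 5.83e-07), and so was fibronectin, Fn1 (-2.94 ± 0.34, adjusted p = 2.55e-08). The 6 higher in astrocytes were the lecticans Bcan and Ncan, the link protein Hapln1, tenascin C (Tnc), Sparcl1 and Mfge8, a ligand of alpha V integrins, with changes of 1.33 to 1.99. Sparcl1 averaged 7802 ± 474 CPM in astrocytes and 2485 ± 707 in input (1.65 ± 0.35, adjusted p = 0.000491), and Mfge8 2830 ± 1478 and 891 ± 174 (1.67 ± 0.39, adjusted p = 0.00114).

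Of the enzymes and chaperone that make collagen, 10 were tested, with 4 higher and 4 lower in microglia, 4 higher and 1 lower in astrocytes and 0 higher and 3 lower in neurons. Beside the shares of all genes called in either direction, 53.9%, 35.4% and 24.9% in microglia, astrocytes and neurons, the count in neurons is near the background. Serpinh1, the collagen chaperone HSP47, had opposite calls, at 18.7 ± 13.4 CPM in microglia, 465 ± 158 in astrocytes and 99.5 ± 21.5 in neurons, against 193 ± 22.1 in input (-3.75 ± 0.39, 1.27 ± 0.30 and -0.94 ± 0.33 over input, adjusted p = 4.32e-09, 0.00121 and 0.0355). The prolyl hydroxylase P4ha1 was higher in microglia (0.97 ± 0.31, adjusted p = 0.00986), and P4hb, its partner subunit, was not called (0.25 ± 0.31, adjusted p = 0.518). Of 7 tested matrix receptors that are no integrins, 0 were higher and 6 lower in microglia, 2 higher and 1 lower in astrocytes and 0 higher and 4 lower in neurons, beside the same shares of all genes, and the 3 calls in astrocytes are near the background. Dystroglycan (Dag1), the laminin receptor of astrocyte endfeet, averaged 78.5 ± 65.7 CPM in microglia, 297 ± 95.2 in astrocytes and 69.1 ± 21.2 in neurons, against 202 ± 18.6 in input, and was called lower in microglia (-1.60 ± 0.35, adjusted p = 0.000238) and neurons (-1.59 ± 0.37, adjusted p = 0.00216). The collagen receptor Ddr1 was lower in microglia (-3.22 ± 0.32, adjusted p = 2.26e-09), and syndecan 2 (Sdc2) was lower there (-3.22 ± 0.38, adjusted p = 3.99e-08) and higher in astrocytes (0.80 ± 0.31, adjusted p = 0.0436).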

How the data were processed

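Polyadenylated RNA of 16 libraries was read as 65 bp single ends from 3' ends, per the labels' protocols. The deposited values used here are whole-number counts per gene with no scaling, per the file headers. Each of the 28936 deposited counts of 100 or more shows 2 significant digits at most. GRCm38.p6 is the build in the submitters' processing notes, which also list STAR, featureCounts, edgeR and Subread 1.6.2 but give none of them a role. The authors' normalized table and library totals were not used. Counts were fitted with edgeR 4.0.16 (R 4.3.3): low genes were removed with filterByExpr (20.1 CPM in 4 libraries), TMM factors scaled the libraries, and all 16 libraries entered 1 quasi-likelihood fit of 9091 genes with the group as the term (common dispersion 0.0733). Tests were two-sided and adjusted by Benjamini-Hochberg over all genes tested. Values after ± are SE of log2 fold changes or SD of CPM, with n = 4. SE were taken from the fold change and its F statistic. CPM were computed with TMM-scaled sizes from the counts in tested genes, and a library of few counts moves in coarse steps: 1 count is about 5.17 CPM in the microglia of animal 2. For 1 to 3 counts in a group, the fold is the ratio of the groups' summed counts over their summed library sizes, with an exact 95% interval, and for 0 counts a floor of 3 was used. Intervals and floors cover counting error only.

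The genes and lists were chosen with earlier results of these data known. Named genes are those with the highest mean CPM over the 4 groups among those that passed the filter, up to 8 integrin alpha, 6 integrin beta, 9 collagen and 7 laminin genes, which took in all 26. Of each partner list the 3 genes with the highest mean CPM are described, and any other partner named was picked with its values in view. The groups share animals, so libraries of 1 number come from 1 animal, and deviations of same-numbered libraries from their group means correlated at -0.0976 to 0.113 across genes. The fit with the animal as a block is an alternative. The alternatives were RLE scaling, library totals, no filter, DESeq2 1.42.0, the block, the 2 groups alone, subtraction of 0.705% of each gene's total from every library as an estimate of shared transcripts, and leaving out each library. Leaving out animal 5 was chosen after seeing the data. The scripts were tested on simulated data. Coordinates are GENCODE M21 on GRCm38. Another gene overlaps the last 1000 bases of 7 of the 26: Gm49368 on the same strand for Itgam, and a gene on the opposite strand for Itga9, Itga4, Itga7, Col9a3, Col4a1 and Lama2. The strand setting of the counting is not given in the sources used here, so reads of such pairs may not be told apart.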

Additional observations from a re-analysis of the deposited data

Results flagged for a closer look

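In 7 of the 86 groups of 4 libraries examined, each with at least 10 counts, the highest or lowest library stood apart from the 3 others by more than Dixon's 95% critical value, and chance flags about 1 in 20 such groups. 3 of the 7 are the microglia of animal 2, the shallowest microglial library: Itgb5 at 1603 CPM (next 781), Itga4 at 46.6 CPM (next 18.7, on 9 counts) and Col4a2 at 20.7 CPM (next 5.12, on 4 counts). Col1a2 was flagged in the neurons of animal 5, at 131 CPM (next 31.2, on 37 counts), where pituitary transcripts were also highest, and in the astrocytes of animal 2, at 54.2 CPM (next 41.3, on 19 counts). Itga7 was flagged in the input of animal 4, at 27.4 CPM (next 18.3). Lama2 was flagged as low in the astrocytes of animal 5, at 9.14 CPM on 2 counts, where the next library stood at 48.5 CPM. What sets these libraries apart was not tested.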

How the results depend on the processing

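Over 24 alternatives, 3440 of 3628 fold changes of the 26 tested genes kept their side of the threshold, 127 missed it and 60 newly passed it. In 1 a called change turned its sign: Itga1 in microglia against astrocytes, -1.01 in the fit reported and 0.10 with the sharing estimate subtracted. The 3440 include changes of sign where neither fit gave a call. An example is Itgb1 in microglia against input, at -0.08 in the fit reported and up to 0.12 in the alternatives. The number of genes called moved by over 1.5 times where more or fewer genes were tested. Without the filter 46 were called in microglia and 21 in astrocytes against input, of 80 tested. With only the 2 groups compared, 38 of 40 tested were called for microglia and 19 of 34 for astrocytes against input, 10 of 12 for microglia against neurons and 4 of 9 for astrocytes against neurons. Subtraction left 13 of 24 called for microglia against neurons, and the cause was not tested. With the animal as a replicate block, the pairing by animal gave 23, 10 and 13 calls for microglia, astrocytes and neurons against input, 19 and 21 for microglia against astrocytes and neurons, and 9 for astrocytes against neurons. Leaving out 1 library at a time gave 22 to 29, 10 to 16, 11 to 16, 17 to 23, 16 to 25 and 7 to 13 calls in the same order. The block ended the calls of Lamb1 in astrocytes against input, Col8a2 in microglia against neurons and Itga7 in astrocytes against neurons, and no other call of the 26 genes. The median over all genes of the move in their log2 fold changes was, for library totals, -0.15, -0.33, -0.13, 0.19 and -0.20 in the comparisons other than microglia against neurons, for RLE 0.16 in neurons against input, and for subtraction -0.56, -0.41, -0.55, -0.18 and -0.11 in the first 5. The shallowest library, the neurons of animal 2, holds 116761 counts and 34 of the 81 genes, and the microglia of animal 2 also hold 34.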
